A study of Mus musculus with 18 samples.

Results

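The features described here are transcripts that the deposited noncoding RNA table of mouse testis lists under an Ensembl transcript identifier and a gene symbol that also stands in the deposited mRNA table. Of 33433 noncoding rows, 14286 met that rule (42.7%), and they carried 7631 symbols, 34.3% of the 22272 symbols of the mRNA table. The other noncoding rows were 15630 annotated transcripts of other symbols and 3517 newly assembled transcripts without a symbol. Each of the 14286 transcripts was set beside the row of its gene. RNA came from whole testis of 3 Taf7l knock-in and 3 wild-type libraries of adult C57BL/6 mice. The edited codon is not given in the labels. Nothing in the labels ties a library to its own animal, so a p-value here measures the spread between libraries of a genotype, which may be technical. Samples of pachytene spermatocytes and round spermatids named by the labels were not analysed here. The comparison asks how noncoding RNA of the testis differs between the genotypes.

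Many protein-coding genes give rise to further transcripts that carry no annotated open reading frame. Some keep an intron, some lack exons that the coding form holds, and some start or end inside the gene. The testis is known for a large variety of such transcripts, because meiotic and post-meiotic germ cells transcribe much of the genome and splice it in many ways. Taf7l, the edited gene, is an X-linked gene for a paralogue of TAF7 that germ cells use in TFIID, the complex that recognises core promoters. The files give neither the class nor the position of a single transcript, so it is not known here which of these forms a given row stands for.

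In 3 genes, Chd5, Gtf2a1l and Cep41, a transcript called between the genotypes took over 25% of the gene's counts in 1 genotype, and their promoters are shown here for that reason. Each line gives, 5′ to 3′ on the gene's strand, the 250 bases before the transcription start that the RefSeq promoter table gives for the gene (the first of several where it lists more), from build GRCm38.p6. The stretches are chr4:152338401-152338650 on the plus strand for Chd5, chr17:88668410-88668659 on the plus strand for Gtf2a1l and chr6:30693750-30693999 on the minus strand for Cep41. Capitals mark the TATA motif TATAAA, the CCAAT motif and the GC motif GGGCGG, on either strand, so that CCGCCC and ATTGG are capitals too. Set against the gene spans given with the called transcripts, the Chd5 stretch ends within the first bases of the gene, while those of Gtf2a1l and Cep41 lie inside the gene and precede an internal start. The starts of the noncoding transcripts themselves were not used here.
Chd5: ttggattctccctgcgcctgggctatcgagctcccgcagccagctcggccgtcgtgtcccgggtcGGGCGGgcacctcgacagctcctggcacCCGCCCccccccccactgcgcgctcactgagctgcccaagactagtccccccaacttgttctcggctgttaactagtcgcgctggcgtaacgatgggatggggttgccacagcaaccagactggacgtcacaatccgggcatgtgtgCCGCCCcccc
Gtf2a1l: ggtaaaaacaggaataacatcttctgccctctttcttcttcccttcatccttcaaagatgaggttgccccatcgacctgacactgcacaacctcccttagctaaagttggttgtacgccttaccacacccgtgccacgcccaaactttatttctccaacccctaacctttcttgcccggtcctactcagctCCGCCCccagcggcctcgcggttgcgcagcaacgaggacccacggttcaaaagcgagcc
Cep41: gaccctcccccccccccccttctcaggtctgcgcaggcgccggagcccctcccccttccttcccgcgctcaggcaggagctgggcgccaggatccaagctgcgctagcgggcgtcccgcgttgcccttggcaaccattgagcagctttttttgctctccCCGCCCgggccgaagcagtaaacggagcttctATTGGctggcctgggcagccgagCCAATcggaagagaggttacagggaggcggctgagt
Chd5 held GGGCGG 3 times, Gtf2a1l once, and Cep41 once with 2 copies of CCAAT. Of the 9 genes with a called transcript, 7 matched a RefSeq promoter entry; those of AW554918 and Pabpc1 were not used here. Among these 7, GGGCGG stood in 6, CCAAT in 2 and TATAAA in 0. Over all 32851 promoters of the same length in the table, 32.7% held GGGCGG, 33.8% CCAAT and 12.4% TATAAA. A match is a description of these letters and not a binding site.

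Across libraries the noncoding table held 1384224 to 1647421 counts, and that of mRNA held 17431309 to 21446420. The transcripts with a coding gene symbol took 366666 to 435966 counts per library. Their share of the noncoding table was 26.4% ± 0.305 in knock-in libraries and 26.6% ± 0.143 in wild-type libraries (SD, n = 3 each; two-sided exact permutation p = 0.4, where 3 against 3 cannot go below 0.1). No 2 libraries of the same genotype stood as copies of each other. Taf7l itself had 472, 525 and 581 counts in the knock-in libraries and 507, 551 and 531 in the wild-type libraries, which does not check the labels, because a knock-in need not change the amount of RNA. Its own noncoding transcript (ENSMUST00000131311) had 0, 2 and 1 counts in the knock-in and 0 in each wild-type library, too few to compare.

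Detection of the transcripts was sparse. At 0 counts in every library stood 4840 of the 14286, while 9446 had a count in some library and 3489 in all 6. Between 5988 and 6184 were detected in a library. After the filter on low counts 2855 could be tested, from 2186 genes, with a median of 33.8 counts per library. Of the 7631 genes, 4330 had 1 such transcript, 3079 had 2 to 5 and 222 had 6 or more. The most, 15, belonged to Hnrnph1, which encodes an RNA-binding splicing regulator. It was followed by Aopep and Plagl1 with 14 each and by Btbd9 and Dcp1a with 13 each. Many listed transcripts did not mean many counts. The 15 Hnrnph1 transcripts summed to 696, 822 and 744 counts in the knock-in and 720, 909 and 799 in the wild type. The 14 transcripts of Plagl1, an imprinted zinc-finger gene, summed to 0, 0 and 2 counts in the knock-in and 0, 1 and 1 in the wild type.

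The row of a gene in the mRNA table held the counts of its noncoding transcripts. In every library the summed count of a gene's transcripts stayed at or below the count of the gene, in all of the 7631 genes except 1, Snhg4. This is a small nucleolar RNA host gene that the mRNA table lists although it is known as noncoding. The sum was equal to the gene's count, and above 0, in 90 to 117 genes per library. In 53 genes a single detected transcript equalled its gene in count in all 6 libraries. In all 53 the FPKM, counts scaled for length and depth, was equal too (tolerance 0.05 FPKM). Where a gene had few counts both values lay near 0, so this could hardly fail. That both tables share 1 scale therefore rests on the better-counted genes, with 9 such transcripts past the filter on low counts. The noncoding transcripts took 4.57% to 4.72% of the counts of their genes. In 62 genes every count of all 6 libraries belonged to noncoding transcripts, but only 14 of them had a tested transcript. Most of the 62 had a mean of less than 1 count, down to 0.167. The largest were Olfr1385, an odorant receptor gene with a mean of 1664 counts, and Klrb1, a lymphocyte receptor gene, with 278 counts. A statement on the coding gene in these tables is therefore a statement on coding and noncoding transcripts together. For that reason the rest of the gene is given below as well, which is the mRNA row minus all of its noncoding transcripts. How reads of overlapping transcripts were divided is not given in the sources used here, so the value of a single transcript is uncertain, above all where the gene has near-identical copies.

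A tested transcript had a median level of 1.29 FPKM over the 6 libraries (quartiles 0.628 and 3.55), against a median of 14.1 FPKM for the genes. Per transcript, the level was 10.7% of the gene's FPKM at the median, with quartiles of 3.69% and 26.8%. Above 50% of the gene's level stood 284 of the 2855 transcripts. In counts, all noncoding transcripts of a gene with a tested one came to 8.53% of the gene at the median (quartiles 2.97% and 24.2%), and in 249 of 2186 genes they came to more than 50%. The length implied by counts and FPKM was 59.7% of the gene's at the median.

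**Figure D1:**
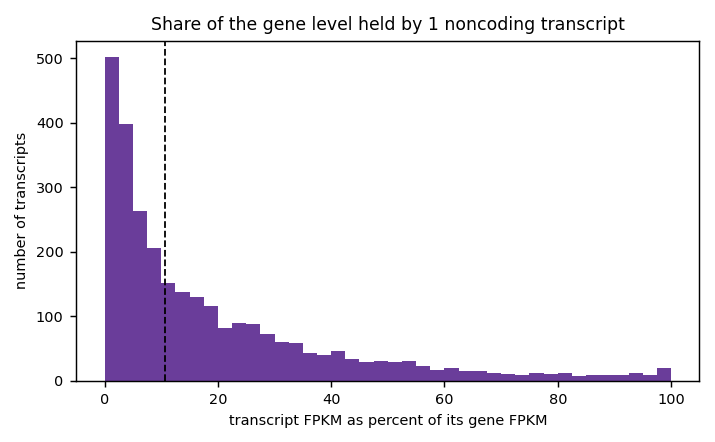
Number of tested noncoding transcripts (vertical axis) by their mean FPKM over 6 libraries as a percent of the FPKM of their gene (horizontal axis, equal bins). The dashed line is the median, 10.7%; the distribution falls from the lowest bin, and 284 of 2855 transcripts lie above 50%.

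The 10 most abundant transcripts had mean levels up to 248.9 FPKM, and none was called between genotypes. That of Eif1, which encodes a translation initiation factor (ENSMUST00000132618), had 249.23, 231.78 and 259.3 FPKM in the knock-in and 258.04, 246.43 and 248.55 FPKM in the wild type. The ranges overlap. That of Rsph3a, a radial spoke protein of the flagellum (ENSMUST00000232233), had 254.48, 217.07 and 263.27 FPKM in the knock-in and 239.21, 226.71 and 222.12 FPKM in the wild type, again overlapping. That of Smim24 (ENSMUST00000129083) had 190.08, 171.94 and 186.91 FPKM in the knock-in and 202.65, 186.26 and 195.54 FPKM in the wild type. Of its gene's counts, the transcript of Eif1 held 24.5% ± 0.356 in the knock-in and 26.3% ± 0.149 in the wild type, and that of Rsph3a 55.9% ± 1.01 in the knock-in and 60.1% ± 2.4 in the wild type.

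The transcript of 1700029F12Rik (ENSMUST00000221277) had 217.52, 201.2 and 239.19 FPKM in the knock-in and 165.78, 156.39 and 149.01 FPKM in the wild type. Every knock-in library was higher, with a log2 fold change (knock-in over wild type) of 0.50 ± 0.08 (SE) short of the threshold (edgeR, adjusted p = 0.0843). Its gene did pass, with 0.52 ± 0.08 (adjusted p = 0.0246), though not without knock-in library 1 or 3 or wild-type library 2 or 3 (up to 0.142), and the transcript held 57.0% ± 1.54 of the gene's counts in the knock-in and 58.6% ± 1.45 in the wild type. That of Elob, which encodes elongin B (ENSMUST00000232702), had 120.91, 123.21 and 124.87 FPKM in the knock-in and 98.51, 105.93 and 106.89 FPKM in the wild type, also without overlap and without passing (log2 0.27 ± 0.06, adjusted p = 0.205). Its gene passed with 0.36 ± 0.07 (adjusted p = 0.0358), though not when any 1 of the 6 libraries was left out (0.0553 to 0.177).

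Transcripts of Efcab6 and Dnajb13 were near their gene's whole level. For Efcab6, an EF-hand calcium-binding protein, the transcript (ENSMUST00000144169) held 90.1% ± 1.45 of the gene's counts in the knock-in and 92.2% ± 0.927 in the wild type. Its levels were 150, 132.86 and 144.24 FPKM in the knock-in and 145.64, 142.06 and 139.65 FPKM in the wild type. For Dnajb13, an axonemal radial spoke component, the transcript (ENSMUST00000130534) had 132.97, 127.58 and 129.79 FPKM in the knock-in and 128.4, 115 and 120.57 FPKM in the wild type. The share of the Dnajb13 gene was 82.9% ± 0.622 in the knock-in and 86.4% ± 1.15 in the wild type.

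The remaining transcripts of the 10 overlapped between genotypes or differed little. That of Zfand3, a zinc-finger gene (ENSMUST00000234866), had 165.09, 145.38 and 159.45 FPKM in the knock-in and 146.89, 128.43 and 125.68 FPKM in the wild type. That of Ube2n, a ubiquitin-conjugating enzyme (ENSMUST00000220428), had 152.08, 138.36 and 145.11 FPKM in the knock-in and 162.26, 160.29 and 164.33 FPKM in the wild type, every knock-in library being lower (log2 -0.14 ± 0.06, edgeR adjusted p = 0.53). That of Tpt1, the translationally controlled tumour protein (ENSMUST00000134040), had 115.68, 108.24 and 122.36 FPKM in the knock-in and 111.03, 116.73 and 116.63 FPKM in the wild type.

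**Figure D2:**
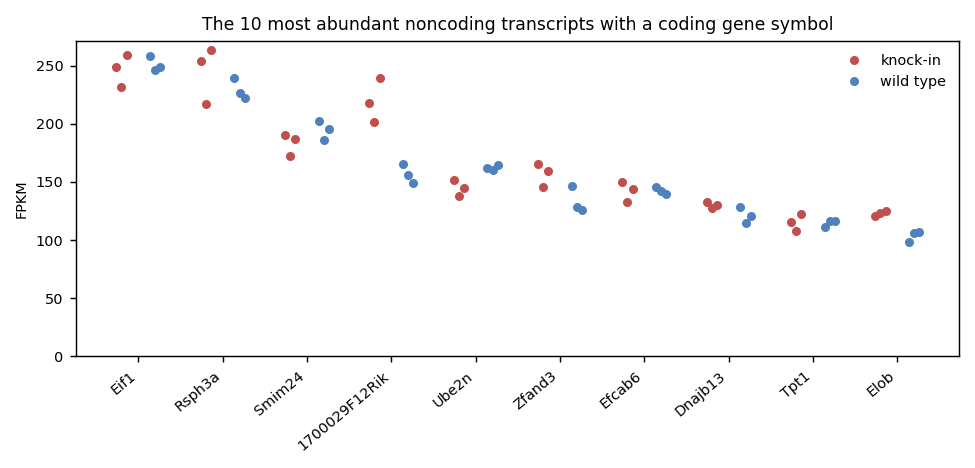
Deposited FPKM (vertical axis, from 0) of the 10 most abundant noncoding transcripts with a coding gene symbol, 1 point per library, knock-in left of wild type for each symbol. The genotypes do not overlap for 1700029F12Rik, Elob and Ube2n, and none of the 10 passed the test.

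Between genotypes, 9 of the 2855 tested transcripts were called at an adjusted p under 0.05 with edgeR's quasi-likelihood test, 5 higher and 4 lower in the knock-in. Of all 9301 noncoding rows tested, 0.0968% were called, 0.0538% higher and 0.043% lower, so these 9 were all the calls of the table, with 0 among the 6446 other noncoding rows. At an unadjusted p under 0.05 stood 349 of the 2855 and 485 of the 6446. DESeq2 called 77 of the transcripts with a coding gene symbol, 0 of the 9 being lost, and the edgeR test without a filter on low counts called 92. With limma on log2(FPKM + 0.1) 18 were called and on log2(FPKM + 1) 30. The genotypes did not overlap in CPM, counts scaled to the depth of the noncoding table, for 509 of the 2855, where that held for 16% of all rows tested. The median log2 fold change was -0.02 over the transcripts and 0.00 over the table. Of the transcripts, 77 had in the authors' deposited table an adjusted p under 0.05, and the 9 were among them. This is the DESeq2 result again and no separate support, since for the 76 named transcripts compared the adjusted p of that table and of DESeq2 were equal in 76 (relative tolerance 0.001).

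**Figure D3:**
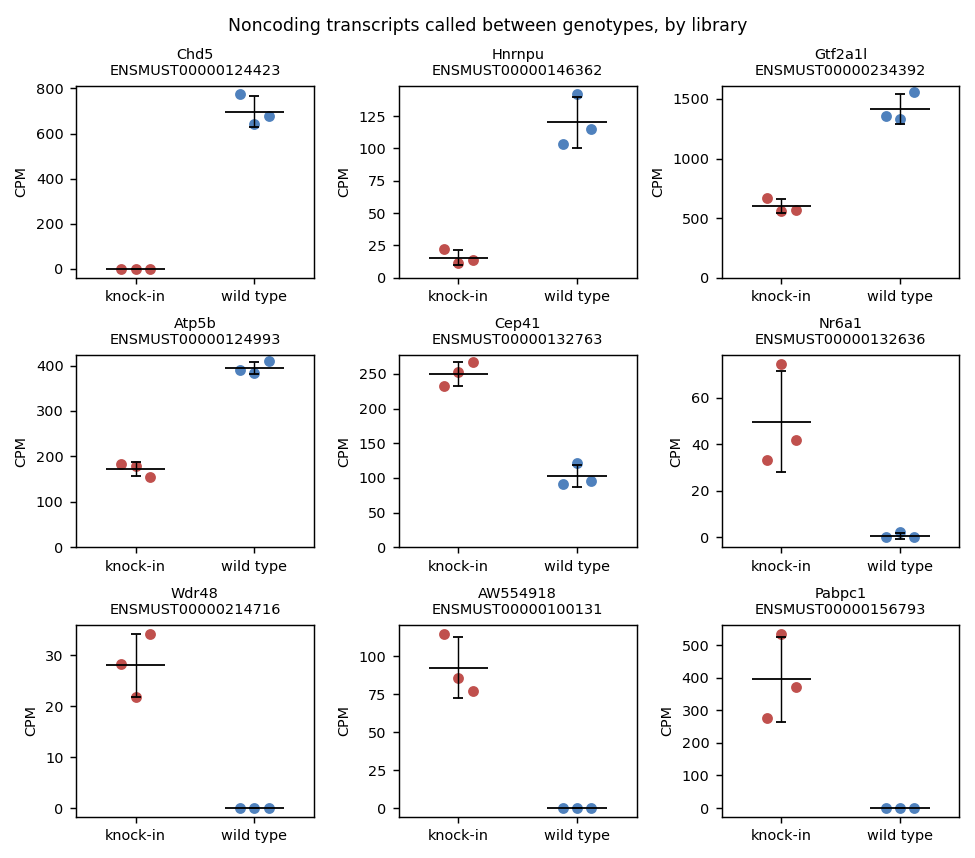
CPM (vertical axes, linear) of the 9 called transcripts in each library, knock-in left of wild type, with the mean as a horizontal bar and the SD as a whisker (n = 3 each). Chd5 is at 0 in each knock-in library; Pabpc1, AW554918 and Wdr48 are at 0 in each wild-type library; no panel shows an overlap of the genotypes.

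The first group among the 9 holds regulators of transcription and chromatin. Chd5 encodes a chromatin remodeller of neurons and of spermatids, where it acts in the replacement of histones in the mouse (chromosome 4 from 152338646 to 152390194, RefSeq GRCm38.p6). Its transcript ENSMUST00000124423 had 0 counts in each knock-in library and 1111, 899 and 917 in the wild-type libraries. The level was at least 1036-fold lower in the knock-in, taken against 3 counts over the group (edgeR, adjusted p = 6.85e-05). The mRNA row of Chd5 had 3558, 3525 and 3968 counts in the knock-in and 3145, 3051 and 3331 in the wild type, with a log2 fold change of 0.11 ± 0.07 (SE) that did not pass (adjusted p = 0.546). In the wild type the transcript made up 30.8% ± 4.06 of those counts. The rest of the gene had 3558, 3525 and 3968 counts in the knock-in and 2034, 2152 and 2414 in the wild type, without overlap. It was called higher, by 0.64 ± 0.08 on the log2 scale (edgeR, adjusted p = 0.0139), with adjusted p = 0.0757 without knock-in library 3 and 0.0566 without wild-type library 2. The rest is the row minus the transcript, so this rise follows in large part from the transcript's 0 counts in the knock-in. It is not a separate result. The other listed noncoding transcript of Chd5, ENSMUST00000136134, was at 0 in all libraries.

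Gtf2a1l encodes the germ-cell form of the large TFIIA subunit, a basal factor that works with TFIID (chromosome 17 from 88665493 to 88715157). Its transcript ENSMUST00000234392 had 944, 802 and 915 counts in the knock-in and 1952, 1868 and 2112 in the wild type. The transcript fell by 1.24 ± 0.10 (SE) on the log2 scale (edgeR, adjusted p = 0.00372), and every knock-in library was below every wild-type library. The mRNA row had 6604, 6241 and 7411 counts in the knock-in and 6683, 6475 and 6335 in the wild type (log2 -0.04 ± 0.06, adjusted p = 0.837). The transcript's share of the gene was 13.2% ± 1.01 in the knock-in and 30.5% ± 2.49 in the wild type (SD, n = 3 each). After subtraction the gene had 5660, 5439 and 6496 counts in the knock-in and 4731, 4607 and 4223 in the wild type. That difference did not pass the test (log2 0.28 ± 0.06, adjusted p = 0.0856).

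Nr6a1 encodes germ cell nuclear factor, an orphan nuclear receptor (chromosome 2 from 38723369 to 38926461). Its transcript ENSMUST00000132636 had 47, 106 and 67 counts in the knock-in and 0, 3 and 0 in the wild type. The ratio of the scaled counts was 69.1, with a 95% exact counting interval of 23.3 to 337 (edgeR, adjusted p = 0.0494). The call was lost when any 1 of the 6 libraries was left out, with adjusted p from 0.0707 to 0.18. A second transcript of the gene, ENSMUST00000128688, had 421, 453 and 475 counts in the knock-in and 399, 449 and 362 in the wild type, and was not called. For the rest of the gene the log2 fold change was -0.01 ± 0.06.

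RNA-binding proteins form the second group. Pabpc1 encodes the cytoplasmic poly(A)-binding protein that protects messenger tails and aids translation (chromosome 15 from 36595658 to 36609581). Its transcript ENSMUST00000156793 had 391, 763 and 600 counts in the knock-in and 0 in each wild-type library, at least 551-fold higher (edgeR, adjusted p = 0.00372). It came to 4.01% ± 1.05 of the gene in the knock-in. The mRNA row rose too, with 12294, 14680 and 16418 counts in the knock-in and 10657, 10252 and 8944 in the wild type (log2 0.44 ± 0.07, adjusted p = 0.0268). The rest of the gene rose by 0.38 ± 0.07 (adjusted p = 0.0447), a call kept in 1 of the 6 fits that left out 1 library, without knock-in library 1, with adjusted p up to 0.222. The rise of the row was not called without knock-in library 2 or 3 or without wild-type library 2 or 3, the adjusted p reaching 0.163.

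Hnrnpu encodes a nuclear protein that binds RNA and chromatin and takes part in splicing (chromosome 1 from 178321108 to 178338891). Its transcript ENSMUST00000146362 had 31, 16 and 22 counts in the knock-in and 148, 199 and 156 in the wild type, and fell by 2.94 ± 0.26 on the log2 scale (edgeR, adjusted p = 0.00518). The mRNA row went the other way, with 7016, 8081 and 8843 counts in the knock-in and 5272, 6170 and 5542 in the wild type (log2 0.39 ± 0.06, adjusted p = 0.0254). The rest of the gene rose by 0.45 ± 0.06 (adjusted p = 0.0155). The transcript's share of the gene was 0.296% ± 0.129 in the knock-in and 2.95% ± 0.239 in the wild type. The other noncoding transcript of Hnrnpu, ENSMUST00000159117, had 44, 67 and 76 counts in the knock-in and 74, 151 and 70 in the wild type. These overlap, and it was not called (edgeR, adjusted p = 0.559). Without knock-in library 3 or wild-type library 1, 2 or 3 the row was not called (adjusted p up to 0.163), and without knock-in library 3 or wild-type library 3 the rest was not called (up to 0.106).

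The other called transcripts come from genes of metabolism, cilia and protein turnover, and from AW554918. Atp5b encodes the catalytic beta subunit of mitochondrial ATP synthase (chromosome 10 from 128083307 to 128090388). Its transcript ENSMUST00000124993 had 260, 256 and 250 counts in the knock-in and 560, 539 and 555 in the wild type, and fell by 1.19 ± 0.10 on the log2 scale (edgeR, adjusted p = 0.00377). The libraries of a genotype were close to each other and far from those of the other genotype. Another of its transcripts, ENSMUST00000126751, had 418, 483 and 510 counts in the knock-in and 411, 326 and 220 in the wild type and was not called (adjusted p = 0.498). Its rest had a log2 fold change of 0.03 ± 0.05.

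Cep41 encodes a centrosomal protein needed for the modification of ciliary tubulin (chromosome 6 from 30653457 to 30710517). Its transcript ENSMUST00000132763 had 329, 359 and 430 counts in the knock-in and 131, 170 and 130 in the wild type, and rose by 1.28 ± 0.14 on the log2 scale (edgeR, adjusted p = 0.0175). It held 33.8% ± 2.2 of the gene in the knock-in and 17.8% ± 2.92 in the wild type. The mRNA row had 1051, 1036 and 1213 counts in the knock-in and 851, 808 and 767 in the wild type, with 0.34 ± 0.07 that did not pass (adjusted p = 0.0619). Its rest had 722, 677 and 783 counts in the knock-in and 720, 638 and 637 in the wild type, which overlap (log2 0.03 ± 0.09). The transcript was called in 2 of the 6 fits that left out 1 library, and the highest adjusted p was 0.127, without knock-in library 2. Leaving out knock-in library 3 gave 0.0616, and leaving out wild-type library 1 or 3 gave 0.0696 and 0.0975.

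Wdr48 encodes a WD-repeat partner that activates deubiquitinating enzymes (chromosome 9 from 119894895 to 119926586). Its transcript ENSMUST00000214716 had 40, 31 and 55 counts in the knock-in and 0 in each wild-type library, at least 39.6-fold higher (edgeR, adjusted p = 0.0272). The mRNA row, with 8409, 8042 and 8757 counts in the knock-in and 8629, 8072 and 8755 in the wild type, was not called. Among the 6 fits that left out 1 library the transcript was called in 1, without wild-type library 2. The adjusted p reached 0.128 without knock-in library 2, with 0.113 and 0.0912 without knock-in libraries 1 and 3 and 0.0516 without wild-type library 1. AW554918 (chromosome 18 from 25168730 to 25467321) had 163, 122 and 124 counts of ENSMUST00000100131 in the knock-in and 0 in each wild-type library, at least 128-fold higher (adjusted p = 0.00372). Its other tested transcripts, with 27, 31 and 33 counts in the knock-in and 22, 28 and 25 in the wild type for ENSMUST00000161262, and with 16, 39 and 11 in the knock-in and 26, 17 and 15 in the wild type for ENSMUST00000162149, were not called.

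Of the 9 transcripts, those of Chd5, Gtf2a1l, Pabpc1, AW554918, Atp5b and Hnrnpu were called in each of the 6 fits that left out 1 library. With the replicate number as a block, those of Chd5 and Pabpc1 were called, and the other 7 were not (adjusted p from 0.0736 for Gtf2a1l to 0.336 for Wdr48). The mRNA row was called for Pabpc1 and Hnrnpu, and not for the other 7 genes. In whole testis, fewer cells of a type and less RNA per cell cannot be told apart. Over the summed marker genes, the peritubular myoid and smooth muscle list of 9 ran from 614 to 636 CPM in the knock-in and from 553 to 579 in the wild type, and the Leydig list of 9 from 1447 to 1472 in the knock-in and from 1221 to 1435 in the wild type, both without overlap and with 0 genes called. The lists of Sertoli cells, macrophages, endothelium and epididymis with erythrocytes overlapped between genotypes, with 0 genes called. That of germ cells ran from 12065 to 14442 CPM in the knock-in and from 12509 to 14282 in the wild type, with 1 of 13 genes called. Their part in the calls above was not tested.

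**Figure D4:**
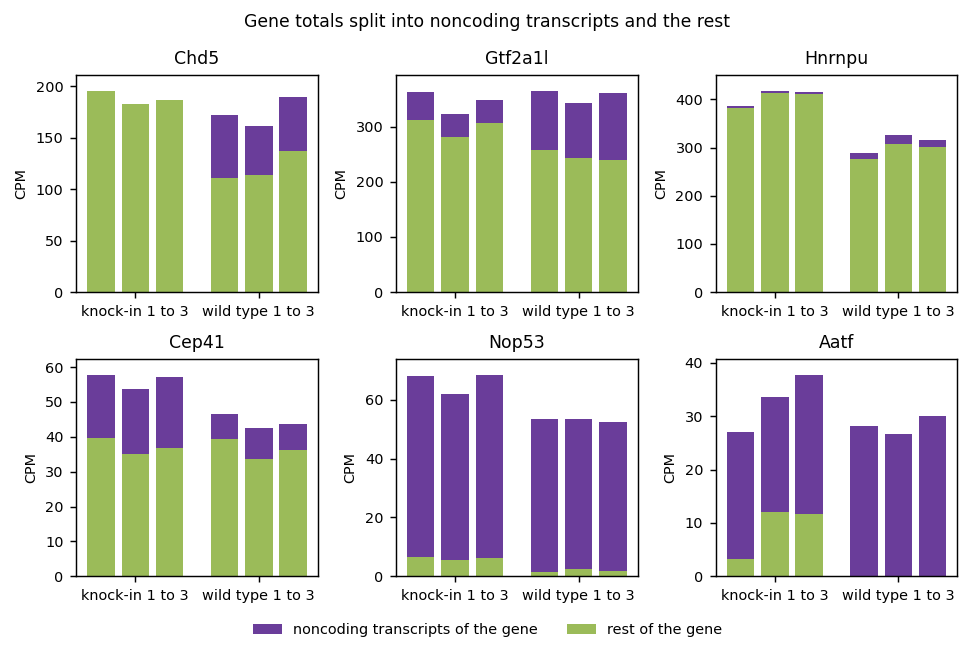
CPM of the mRNA row (vertical axes, from 0, scaled by the mRNA table) in each library, split into the gene's noncoding transcripts and the rest of the gene, knock-in left of wild type. In Chd5 and Gtf2a1l the whole bars are alike while the noncoding part is smaller in the knock-in; in Cep41 it is larger; in Aatf the rest is at 0 in each wild-type library.

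Set against the row of its own gene, the transcript changed relative to the gene in 23 of 2855 pairs, 10 higher and 13 lower in the knock-in, or 0.806% of the pairs tested (limma on the log2 ratio of the counts plus 0.5, adjusted p under 0.05). The unadjusted p was under 0.05 in 326 pairs, and the median difference was -0.04. Without knock-in library 2, 10 pairs were called. Against the rest of the gene 18 were called, 0.63% of the pairs, 17 of them among the 23. In 7 of the 23 the transcript itself was called, which are all of the 9 except Cep41 (difference 0.93 ± 0.13, adjusted p = 0.0578) and Nr6a1 (6.08 ± 0.85, adjusted p = 0.0566). In 2 the gene's row was called. The transcript stood at 0 in 1 genotype in 9 pairs and had counts in both genotypes in 14.

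Beside the transcripts described above, 2 transcripts of Clpb, which encodes a mitochondrial chaperone, were lower relative to the gene. ENSMUST00000153473 had 1040, 999 and 1126 counts in the knock-in and 1369, 1325 and 1138 in the wild type, with a difference of -0.59 ± 0.05 in the log2 ratio (limma, adjusted p = 0.0103). ENSMUST00000150832, with 954, 905 and 920 counts in the knock-in and 1295, 1130 and 1163 in the wild type, had a difference of -0.69 ± 0.07 (adjusted p = 0.0184). All Clpb transcripts together held 13.0% of the gene in the knock-in and 17.4% in the wild type. Mrto4, a ribosome assembly factor, had 531, 553 and 675 counts of ENSMUST00000131052 in the knock-in and 806, 845 and 804 in the wild type, a share of 28.3% ± 0.712 in the knock-in and 43.3% ± 2.51 in the wild type. Its difference was -0.61 ± 0.05 (adjusted p = 0.0103). Pcbp3, which encodes a poly(C)-binding protein, had 548, 467 and 604 counts of ENSMUST00000171437 in the knock-in and 765, 794 and 698 in the wild type. It had a difference of -0.61 ± 0.06 (adjusted p = 0.0159) and shares of 10.9% ± 0.747 in the knock-in and 16.7% ± 0.562 in the wild type. Without knock-in library 2, these 4 transcripts were not called, and ENSMUST00000150832 and Pcbp3 were also lost without wild-type library 1, 2 or 3, and Pcbp3 without knock-in library 3.

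The other pairs with large differences rest on few counts. The lysosomal beta-mannosidase gene Manba had 0 counts of ENSMUST00000134478 in each knock-in library and 18, 13 and 15 in the wild type, and the kinesin gene Kif21b had 0 of ENSMUST00000165333 in each knock-in library and 20, 10 and 20 in the wild type. Cyc1, the cytochrome c1 gene of respiratory complex III, had 0, 0 and 1 counts of ENSMUST00000229292 in the knock-in and 15, 32 and 39 in the wild type. In the other direction Ubac2 had 14, 13 and 25 counts of ENSMUST00000227936 in the knock-in and 0 in each wild-type library. Dixdc1, a gene of Wnt signalling, had 10, 37 and 26 counts of ENSMUST00000119449 in the knock-in and 0 in each wild-type library. Apoe, the lipid carrier gene, had 11, 106 and 37 counts of ENSMUST00000167646 in the knock-in and 0 in each wild-type library. None of these 6 transcripts was called in the noncoding table (adjusted p from 0.0696 to 0.184), and each ratio call was lost without knock-in library 2. Of the 6 fits that left out 1 library, the ratio was called in 1 for Apoe and in 2 each for Manba and Cyc1. It was called in 3 for Kif21b, 4 for Ubac2 and 5 for Dixdc1.

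Of the 23 pairs, 13 had more than 3 counts of the transcript in both genotypes, 9 lower and 4 higher in the knock-in. In all 13 the transcript and the rest of the gene had log2 fold changes of opposite sign, which the choice of these pairs favours. The median of the 9 was -0.57 for the transcript and 0.29 for the rest of the gene. Among them, named after their values were seen, was Acrbp, which encodes the proacrosin-binding protein of the acrosome. Its transcript ENSMUST00000112412 had 1156, 1044 and 1272 counts in the knock-in and 1574, 1198 and 1188 in the wild type, while the rest had 5932, 5853 and 7204 in the knock-in and 4558, 4461 and 3951 in the wild type. The transcript of Trim28, a corepressor of transposons, held 12.3% ± 0.748 of the gene in the knock-in and 8.94% ± 0.494 in the wild type. That of Ubl3 held 34.3% ± 1.85 in the knock-in and 26.5% ± 0.422 in the wild type, and that of Rpn2 69.4% ± 0.805 in the knock-in and 63.6% ± 0.816 in the wild type. The transcript of Hsbp1, which encodes a heat shock factor binding protein, held 9.41% ± 0.0134 in the knock-in and 13.9% ± 0.662 in the wild type. Of these ratio calls, those of Trim28 and Rpn2 were lost in each of the 6 fits that left out 1 library, with adjusted p up to 0.119 for Trim28 and 0.104 for Rpn2. Those of Acrbp and Ubl3 were kept in 1 of the 6, without wild-type library 2 for Acrbp (up to 0.151) and without knock-in library 1 for Ubl3 (up to 0.139), and that of Hsbp1 was lost without knock-in library 2 (0.0572). Against the rest of the gene none of these 5 was called.

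**Figure D5:**
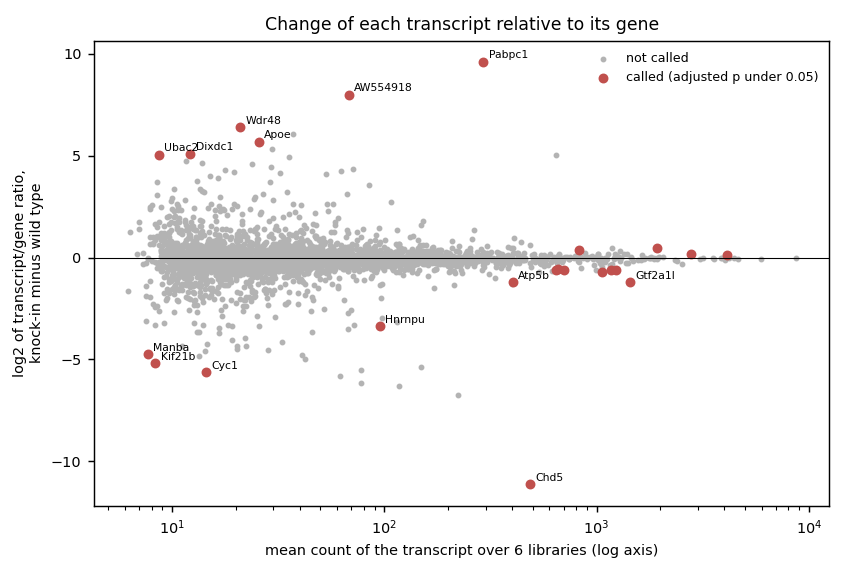
Difference between genotypes in the log2 ratio of transcript to gene (vertical axis, knock-in minus wild type) by the mean count of the transcript (horizontal axis, log scale), 1 point for each of 2855 pairs, with the 23 called pairs in red. Called pairs with low counts lie at large differences, such as Kif21b, Manba and Ubac2, and the called pairs with high counts include smaller ones.

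Where the noncoding transcripts were subtracted, 46 of 6632 genes with such a transcript were called between genotypes, 39 higher and 7 lower, beside 0.905% of all rows of the mRNA table so treated. With the rows as deposited, 48 of 6737 were called, 41 higher and 7 lower, beside 0.982% of all rows (0.88% higher and 0.101% lower). Of the 46, 40 were called as deposited too. Both counts depend on single libraries. As deposited, 4 genes were called without knock-in library 3, and 26, 8 and 9 without wild-type libraries 1, 2 and 3, while DESeq2 called 151. After subtraction, 6 were called without knock-in library 3, 18 and 6 without wild-type libraries 2 and 3, and 172 with DESeq2.

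The 6 genes called after subtraction alone were Chd5, Tchp, Acrbp, Aatf, Dnajb13 and Nop53, all higher in the knock-in, and this list was read from the values. Since the rest is the row minus the transcripts, these calls are not independent of how counts were divided within the gene. Tchp encodes trichoplein, a protein of centrioles and keratin filaments. Its rest had 1465, 1697 and 1870 counts in the knock-in and 1141, 1133 and 1053 in the wild type (log2 0.49 ± 0.06, edgeR, adjusted p = 0.0139), against 0.15 ± 0.08 for the row as deposited. The transcript ENSMUST00000112199 had 212, 161 and 450 counts in the knock-in and 551, 579 and 442 in the wild type. Nop53 encodes a factor of ribosome biogenesis and consisted mostly of noncoding transcripts, at 90.7% of its counts in the knock-in and 96.3% in the wild type. Its rest had 122, 108 and 132 counts in the knock-in and 27, 48 and 34 in the wild type (log2 1.63 ± 0.23, adjusted p = 0.0144).

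Aatf, which encodes a nucleolar regulator of transcription and cell survival, held no count outside ENSMUST00000127042 in the wild type. The rest had 58, 233 and 250 counts in the knock-in and 0 in each wild-type library, at least 168-fold higher (edgeR, adjusted p = 0.0139). The transcript itself had 435, 416 and 553 counts in the knock-in and 517, 505 and 530 in the wild type, which overlap. For Dnajb13 the rest had 727, 774 and 865 counts in the knock-in and 525, 557 and 481 in the wild type (log2 0.50 ± 0.07, adjusted p = 0.0168). For Acrbp the log2 fold change of the rest was 0.45 ± 0.07 (adjusted p = 0.0161). Without knock-in library 3 the rest was not called for any of the 6 genes, nor was it without wild-type library 3 for Tchp, Acrbp, Aatf, Dnajb13 and Nop53, with adjusted p up to 0.11. Without wild-type library 2 it was not called for Chd5, Tchp, Acrbp and Dnajb13, and without wild-type library 1 not for Dnajb13.

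From the other side, 26 of 2186 genes with a tested transcript were called in the mRNA table, 23 higher and 3 lower. Of all mRNA rows tested, 0.982% were called, 0.88% higher and 0.101% lower. The 26 genes had 44 tested transcripts, of which 2 were called, those of Pabpc1 and Hnrnpu. Of all noncoding rows tested, 0.0968% were called. The 37 transcripts of genes called higher had a median log2 fold change of 0.22, beside -0.02 over all tested transcripts. The choice favours a value above 0, since the row of a gene holds the counts of its transcripts, so it is no separate result. Ybx1, which encodes a cold-shock-domain protein that binds messenger RNA, had the smallest adjusted p. Its row had 2851, 3228 and 2911 counts in the knock-in and 1380, 1253 and 1363 in the wild type (log2 1.07 ± 0.09, edgeR, adjusted p = 0.00159). Its main noncoding transcript ENSMUST00000139897 had 276, 216 and 299 counts in the knock-in and 169, 198 and 236 in the wild type, with 0.30 ± 0.17 that did not pass (adjusted p = 0.676). All noncoding transcripts of Ybx1 held 9.99% of the gene in the knock-in and 18.2% in the wild type, and the difference in ratio was not called for any of the 3 tested ones (adjusted p from 0.24 to 0.288).

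In Gm5142 the transcript and the gene had like changes. ENSMUST00000224214 had 486, 425 and 539 counts in the knock-in and 286, 306 and 262 in the wild type, and the rest of the gene had 487, 425 and 539 in the knock-in and 287, 306 and 263 in the wild type. The counts were thus evenly divided in every library, within 1 count. With such a division the transcript's change can only equal that of the gene, so it is no separate result. The row rose by 0.67 ± 0.09 (edgeR, adjusted p = 0.0137) and the transcript had 0.68 ± 0.10 (adjusted p = 0.0698). Rpl23, a ribosomal protein gene, rose by 0.52 ± 0.07 (adjusted p = 0.0137). Of its transcripts, ENSMUST00000151118 had 0.27 ± 0.10 and ENSMUST00000151965 had 0.74, neither of them called (edgeR, adjusted p = 0.474 and 0.788). Smarcc2, a subunit of SWI/SNF chromatin remodellers, rose by 0.47 ± 0.07 (adjusted p = 0.0206), and its transcript ENSMUST00000220384 had 0.32 ± 0.13.

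The remaining genes of the 10 with the smallest adjusted p were St6galnac2, Edf1, Tmem258, Ift43, Arl3 and Syngr4, which rose by 0.46 to 0.81 on the log2 scale. St6galnac2 encodes a sialyltransferase, Edf1 a transcriptional coactivator, and Ift43 and Arl3 proteins of ciliary transport. Their tested transcripts held on average 0.59% to 6.42% of the gene in either genotype, and none was called. A transcript of Edf1, ENSMUST00000134689, had 4, 5 and 18 counts in the knock-in and 14, 18 and 25 in the wild type, a log2 fold change of -1.20 ± 0.58 beside 0.81 ± 0.11 for the gene. Another tested transcript of Edf1, ENSMUST00000153008, had 0.21 (edgeR, adjusted p = 0.928). Without knock-in library 3 none of the 10 rows was called except Ybx1, and without wild-type library 2 or 3 none except Ybx1 and St6galnac2. Without wild-type library 1 Gm5142 and Smarcc2 were not called.

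Summed per symbol, the noncoding counts were called for 9 of 2297 symbols, beside 0.111% of the 8125 summed rows. Of the 9, 7 were symbols of the called transcripts, and 1700012A03Rik and Cyc1 joined them while Atp5b and Nr6a1 did not. For Gtf2a1l, Pabpc1, Cep41 and Cyc1 the sum held 1 row, so it repeats that transcript's counts and is no separate support. The same holds for Chd5 and Wdr48, where the other row added no count. Cyc1 had an adjusted p of 0.0696 as a transcript and 0.0463 as a sum of the same counts (edgeR). 1700012A03Rik had sums of 494, 480 and 516 counts in the knock-in and 263, 261 and 214 in the wild type (log2 0.93 ± 0.10, edgeR, adjusted p = 0.0137). It was not called without knock-in library 1 or 2 or wild-type library 1 or 3 (adjusted p up to 0.0784), and neither of its 2 tested transcripts was called, its other listed transcript being below the filter. ENSMUST00000135066 had 410, 276 and 378 counts in the knock-in and 231, 210 and 214 in the wild type, and ENSMUST00000201926 had 84, 204 and 138 in the knock-in and 32, 51 and 0 in the wild type. The sum of AW554918 rose by 2.01 ± 0.18 and that of Hnrnpu fell by 1.73 ± 0.20. The sum of AW554918 was called in all 6 fits that left out 1 library. That of Hnrnpu was not called without knock-in library 1, 2 or 3 or wild-type library 3 (adjusted p up to 0.118), and that of Cyc1 was called only without wild-type library 1 (up to 0.155). Without knock-in library 2, 4 symbols were called, and 5 without wild-type library 3. DESeq2 called 68 and the test without a filter 54.

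Among gene groups listed for this tissue, calls were few. Of 28 TFIID and basal factor genes, 6 had 8 tested transcripts, with 0 called higher and 1 lower (Gtf2a1l) and a median log2 fold change of -0.08. Taf13, a TFIID subunit, consisted nearly wholly of noncoding transcripts, at 95.5% of its counts in the knock-in and 92.9% in the wild type, and ENSMUST00000131814 had a log2 fold change of -0.06 ± 0.14. Of 30 chromatin regulators, 8 had 10 tested transcripts, with 1 lower (Chd5) and a median of -0.27. Smarca2, a SWI/SNF ATPase, had 942, 849 and 986 counts of ENSMUST00000175935 in the knock-in and 1085, 1171 and 1196 in the wild type (log2 -0.40 ± 0.08, adjusted p = 0.154), and Chd9 had 0.11 ± 0.19 for ENSMUST00000209474. The median over all tested noncoding rows was 0.00.

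Of 35 splicing genes, 9 had 17 tested transcripts, 1 of them lower (Hnrnpu) and 0 higher, with a median of -0.07. The transcript of the RNA helicase gene Ddx5 (ENSMUST00000130172) had 439, 577 and 670 counts in the knock-in and 252, 354 and 155 in the wild type, without passing (log2 1.06 ± 0.26, edgeR, adjusted p = 0.23). Of 30 translation genes, 10 had 16 tested transcripts, with 1 higher (Pabpc1), 0 lower and a median of -0.11. There Rps6, a small ribosomal subunit gene, had 929, 743 and 787 counts of ENSMUST00000123229 in the knock-in and 1181, 1164 and 1129 in the wild type (log2 -0.58 ± 0.11, adjusted p = 0.128), and Rpl13a had -0.28 ± 0.06 (adjusted p = 0.194). The rows of these genes had log2 fold changes of 0.01 ± 0.05 for Rps6 and -0.01 ± 0.05 for Rpl13a.

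Of 34 spermatid, acrosome and flagellum genes, 6 had 11 tested transcripts, none called, with a median of 0.19, and 7 of the 34 gene rows were called higher, beside 0.88% of all mRNA rows. Of the gene rows of the other lists, 2 of 35 splicing genes were called higher, and 4 of 30 translation genes were called higher and 1 lower. None was called in the lists of TFIID and basal factors, chromatin regulators, meiotic prophase, or ubiquitin and proteasome. Odf2, a gene of the outer dense fibres, had 1690, 1420 and 1530 counts of ENSMUST00000152932 in the knock-in and 1060, 1146 and 900 in the wild type (log2 0.50 ± 0.11, edgeR, adjusted p = 0.184). Another of its transcripts, ENSMUST00000129960, had 0.11 ± 0.13. Of 30 meiotic prophase genes 1 had a tested transcript (Stag3, 0.20 ± 0.62), and of 30 ubiquitin and proteasome genes 3 had, with 0 called and values of 0.04 ± 0.10 for Usp7, 0.75 ± 0.41 for Huwe1 and -1.07 ± 0.56 for Psmb1. Of the somatic markers, Myl9 and Vwf each had 1 tested transcript, with 0.36 ± 0.73 and -0.86 ± 0.94. Of 2849 tested transcripts with a known position, 44 lay on the X chromosome, where Taf7l lies, with a median log2 fold change of -0.06. The 9 called transcripts all lay on autosomes, which so small a share on the X chromosome makes likely in any case.

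A transcript at 0 in 1 library and well counted in another of the same genotype was not rare. Of the 2855, 67 had 0 in 1 library and at least 50 counts in another library of the same genotype, 43 among knock-in and 36 among wild-type libraries. The same held for 34 of the 6446 other noncoding rows. The rows of their genes varied little: in the 79 pairs of transcript and genotype the highest gene count was 1.17 times the lowest at the median, and under 1.5 times in 72. Examples, chosen after their values were seen as the 3 genes with the highest count in a genotype that also held a 0, were Prdx6, a peroxiredoxin gene, Tug1, a gene known for its long noncoding RNA, and Tcp11, a testis-expressed gene. Prdx6 had 136, 461 and 0 counts of ENSMUST00000156678 in the knock-in and 109, 0 and 85 in the wild type. Tug1 had 0, 25 and 325 counts of ENSMUST00000153313 in the knock-in and 383, 0 and 123 in the wild type, and Tcp11 had 650, 1106 and 1641 of ENSMUST00000123628 in the knock-in and 318, 167 and 0 in the wild type. At 0 in all libraries of 1 genotype stood 9 tested transcripts, 3 of them in the knock-in and 6 in the wild type, among them the 4 called transcripts of Chd5, Pabpc1, AW554918 and Wdr48.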

How the data were processed

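RNA of whole testis was measured in 3 Taf7l knock-in and 3 wild-type libraries, made per the labels' protocols with Trizol from frozen tissue and a stranded total RNA kit. Per the submitters' processing notes, reads were placed on mm10. The deposited tables hold whole-number counts per mRNA gene and per noncoding transcript, and FPKM per library, as the authors made them; the authors' deposited adjusted p-values were used only where named. Not given in the sources used here are the aligner, the counter, the annotation, the use of strand and which test the authors ran.

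Counts were tested with edgeR 4.0.16 (quasi-likelihood, TMM, filterByExpr with a minimum count of 10 and a minimum total of 15; limma 3.58.1, R 4.3.3), each table as a whole, two-sided, with Benjamini-Hochberg adjustment and a threshold of 0.05. Ratios of transcript to gene were tested with limma (eBayes with a trend) after adding 0.5 to each count. The subtraction of noncoding transcripts from the mRNA row was added after seeing the data. Depths and the alternatives DESeq2 1.42.0, other scalings, filters and left-out libraries are given in the text; edgeR's common dispersion came to a coefficient of variation of 26.4% in the noncoding table and 11.1% in that of mRNA. A fold against a genotype at 0 is a lower bound against 3 counts over the group, a genotype with 1 to 3 counts gives a ratio with a 95% exact interval, and both cover counting error only. No 2 libraries of a genotype agreed within sampling noise (chi-square per degree of freedom of 4.18 to 5.08). The scripts were tested on simulated data.

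Named are the called transcripts with their genes, the 10 with the highest mean FPKM, the 5 symbols with the most transcripts, the 10 called genes with the smallest adjusted p, the 10 largest called ratio differences not yet named, symbols called after summing, and up to 3 transcripts per gene list. The transcripts and lists were chosen with earlier results of these data known. Replicate numbers were not used to pair the libraries in the main fits, though a pairing by number was not excluded. Gene positions and promoters are from RefSeq, GRCm38.p6.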

Additional observations from a re-analysis of the deposited data

How the results depend on the processing

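The 9 called transcripts kept their direction under every alternative run. Their genotypes did not overlap, so this was largely fixed in advance. No named value called in the main fit reversed, and changes of sign in values not called were not counted. With DESeq2, 77 transcripts, 151 gene rows, 172 rests of genes and 68 summed symbols were called, and without a filter on low counts 92 transcripts and 54 summed symbols. With limma on log2(FPKM + 0.1), 18 transcripts and 77 gene rows were called, and on log2(FPKM + 1), 30 and 79. The cause of these differences was not tested. Leaving out 1 library at a time gave 6 to 13 called transcripts, 4 to 36 gene rows, 10 to 33 pairs in the ratio test, 4 to 11 summed symbols and 6 to 43 rests of genes. The same replicate numbers stand in both genotypes, but same-numbered libraries did not deviate together in every pair. Their correlations were -0.003, 0.013 and -0.021 in the noncoding table. In the mRNA table they were 0.153, 0.134 and 0.004, where numbers 1 and 2 but not 3 correlate best with their own number. These values do not exclude a pairing by number, which the main fits did not use. With the replicate block 2 transcripts, 61 gene rows, 5 ratio pairs, 7 summed symbols and 49 rests of genes were called. Among values of single transcripts, genes and pairs under all alternatives, 248 lost their call and 91 gained one. Other scalings (RLE and upper quartile) left the transcript count at 9. Added after seeing the data were the ratio against the rest of the gene (18 pairs) and the subtraction (46 genes). At a median of 33.8 counts per library, depth limits what single transcripts can show.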
